A study of Mus musculus with 18 samples.

Results

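The 32 genes described here encode the enzymes that build cholesterol and long-chain fatty acids, together with the proteins that sense sterols and switch these enzymes on. They were taken as a listed set: 7 genes of the mevalonate and isoprenoid steps, 10 of the steps from squalene to cholesterol, 5 sterol sensors and regulators, 4 of fatty acid synthesis, 4 desaturases, the sterol carrier Stard4 and the cytosolic acetyl-CoA thiolase Acat2. A probe set naming a single gene was used for 31 of them, and for each gene the probe set with the highest mean over the 18 arrays was taken. Acat2 had none and has no value here. All 31 lay above the filter on low signal, among 10916 of 18193 genes on the arrays that did.

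The arrays came from 3 mouse lung carcinoma lines, A2C12, betaD5 and cRAF_cMYC, which transformed spontaneously in culture after isolation from lung tumours of 8-month-old mice carrying both a c-myc and a c-raf transgene. The promoters driving the transgenes and the number of mice behind each line are not given in the sources used here. Every line was grown in medium with 10% fetal calf serum, itself a source of sterol and fatty acids, and no sample was treated. Side population (SP) and nonSP cells of each line were measured on 3 arrays per fraction. SP cells are those that exclude a DNA dye through membrane transporters, and nonSP cells are the rest of the culture. The labels number the arrays 1 to 3 without saying whether these were separate cultures or sorts, so p-values measure the spread between these samples only, which may be technical.

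Cholesterol is made from acetyl-CoA by way of mevalonate, isoprenoid diphosphates, squalene and lanosterol, and saturated fatty acids are made from the same acetyl-CoA, which ATP citrate lyase supplies to the cytosol. Both branches are switched on by the transcription factors SREBP-1 and SREBP-2, the products of Srebf1 and Srebf2. When membrane sterol is low, the escort protein SCAP carries SREBP to the Golgi for cleavage, and when it is high, INSIG proteins hold the complex in the endoplasmic reticulum. In the lung these pathways are best known for supplying surfactant lipid in alveolar type II cells, and proliferating tumour cells use them to build membranes.

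Several features of the 18 arrays touch the results below. Array medians of the deposited log2 signals ran from 5.8 to 6.72 and were lowest in A2C12, so differences between lines are given with and without rescaling. The nonSP array labelled betaD5 1 correlated at up to 0.982 with arrays of another line and at 0.925 at most with other numbers of its own, and for cRAF_cMYC 3 these values were 0.988 and 0.929. The arrays cRAF_cMYC 1 and 2 in turn correlated at 0.98 and 0.983 with an array of another line and at 0.973 with each other. For betaD5 2 the values were nearly even, at 0.988 with another line and 0.987 with its own. Of the nonSP arrays of these lines only betaD5 3 was closer to its own line (0.987 against 0.981). Lines are therefore named as labelled, and results that rest on the pairs betaD5 1 and cRAF_cMYC 3, called the doubtful pairs below, are also given without them. RNA length, read as the log2 signal of 3' over 5' control probe sets (mean of Gapdh and Actb), gave 0.91 and 0.96 on the SP arrays betaD5 2 and 3 and at most 0.65 elsewhere. Of the 8 epithelial markers 5 lay above the filter (Epcam, Krt8, Krt18, Krt19 and Cldn3) and Cdh1 did not. Of the 7 alveolar type II markers with a probe set 3 did, and Sftpc, the marker that defines the type, stayed at 5.13 to 6.60.

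SREBP is known to act on promoters together with the factors NF-Y and Sp1. To show what sequence these genes carry, the 250 bases before each start in RefSeq (GRCm38.p6) were searched on both strands for a sterol regulatory element core (TCACNCCAC), the NF-Y box (CCAAT), the Sp1 box (GGGCGG) and the E-box (CACGTG), none of which overlapped another in the windows printed. Windows were found for 25 of the 32 genes. The sterol element core was present in 1 of the 25, Hmgcs1, against 1.22% of all genes with a window. NF-Y boxes were present in 19 of 25 (37.5% of all genes), Sp1 boxes in 21 (35.4%) and E-boxes in 5 (6.86%). A match is a description of the letters and no evidence of binding. Hmgcs1, which makes HMG-CoA, is printed for its sterol element core, which spans 137 to 129 bases before the start. Cyp51 and Fads2 are printed because they were called above A2C12 after quantile normalization, Cyp51 in cRAF_cMYC and Fads2 in both lines. Insig1 is printed because it is a sensor that was called together with many of the enzymes between betaD5 and cRAF_cMYC once the doubtful pairs were left out. The windows lie at chr13:119690101-119690350 (plus strand, Hmgcs1), chr5:4104698-4104947 (minus strand, Cyp51), chr19:10101504-10101753 (minus strand, Fads2) and chr5:28071162-28071411 (plus strand, Insig1), each directly upstream of the first exon, and read 5′ to 3′ with matches to any of the motifs on either strand in capitals:
Hmgcs1: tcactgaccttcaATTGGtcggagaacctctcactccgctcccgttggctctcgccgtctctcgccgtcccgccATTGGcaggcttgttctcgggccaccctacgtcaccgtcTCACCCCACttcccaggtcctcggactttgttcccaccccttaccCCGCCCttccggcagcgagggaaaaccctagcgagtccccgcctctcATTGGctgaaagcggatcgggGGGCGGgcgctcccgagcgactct
Cyp51: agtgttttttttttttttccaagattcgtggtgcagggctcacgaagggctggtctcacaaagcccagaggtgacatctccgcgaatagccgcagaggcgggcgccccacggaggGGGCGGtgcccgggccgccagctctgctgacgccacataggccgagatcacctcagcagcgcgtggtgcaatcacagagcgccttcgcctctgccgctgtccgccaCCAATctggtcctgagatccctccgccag
Fads2: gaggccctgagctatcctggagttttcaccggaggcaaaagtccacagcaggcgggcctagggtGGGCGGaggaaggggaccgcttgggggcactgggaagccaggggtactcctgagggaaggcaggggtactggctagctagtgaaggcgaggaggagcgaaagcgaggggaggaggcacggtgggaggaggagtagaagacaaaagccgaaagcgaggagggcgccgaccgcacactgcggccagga
Insig1: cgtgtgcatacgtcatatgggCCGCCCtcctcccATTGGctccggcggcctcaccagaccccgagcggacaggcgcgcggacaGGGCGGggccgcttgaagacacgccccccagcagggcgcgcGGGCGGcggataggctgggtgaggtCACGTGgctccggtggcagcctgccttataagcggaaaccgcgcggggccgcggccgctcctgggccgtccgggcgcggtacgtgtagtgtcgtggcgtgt

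Hmgcs1 carried 3 NF-Y boxes and 2 Sp1 boxes beside its sterol element core, and Insig1 carried 1 NF-Y box, 3 Sp1 boxes and an E-box. Cyp51 held 1 NF-Y box and 1 Sp1 box. The Fads2 window held 1 Sp1 box and no match to the other motifs, which says only that these letters are not in this window.

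The study asked how SP cells differ from nonSP cells. None of the 31 genes was called in A2C12, betaD5, cRAF_cMYC or the mean of the 3 lines (limma on all 18 arrays, Benjamini-Hochberg adjusted over 10916 genes, called at an adjusted p under 0.05). Of all genes 0% were called in each of these comparisons. At an unadjusted p under 0.05 the count of these genes was again 0, against 0.00916%, 0.128%, 0.165% and 0.33% of all genes in A2C12, betaD5, cRAF_cMYC and the mean. These shares lie far below the threshold of 0.05 itself. This fit leaves what a pair shares in the spread and could hardly call any gene, so its counts of 0 say little. The median difference of the 31 genes (SP minus nonSP, log2) was -0.03 in A2C12, 0.02 in betaD5, -0.05 in cRAF_cMYC and -0.02 in the mean, beside all-gene medians of -0.01, 0.03, 0.01 and 0.01. In the mean of the lines 11 of 31 lay above 0, against 54.3% of all genes.

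A fit with the same-numbered arrays of a line as a replicate block, which removes what a pair shares, had a median SE of 0.07 for these genes in the mean of the lines, against 0.18 without it. It also called 0 of the 31 and 0% of all genes in every SP comparison, and the smallest adjusted p of these genes was 0.277. At an unadjusted p under 0.05 it had 5 of 31, 1 higher and 4 lower in SP, where all genes had 9.42% higher and 3.75% lower. The 4 lower genes were all among the 10 enzymes that turn squalene into cholesterol. They were Ebp, a sterol isomerase (-0.22, 95% interval -0.40 to -0.05), Hsd17b7, a sterol ketone reductase (-0.20, interval -0.37 to -0.03), Nsdhl, a dehydrogenase that removes a sterol methyl group (-0.17, interval -0.31 to -0.02), and Tm7sf2, a sterol reductase (-0.17, interval -0.32 to -0.02). The higher gene was Acly, ATP citrate lyase (0.10, interval 0.00 to 0.19). None of these passed after adjustment. Further probe sets of Hsd17b7 were split: the brighter moved in both directions over the pairs, and a dimmer set was lower in SP in every betaD5 and cRAF_cMYC pair. With the 3' to 5' ratio as a covariate in the paired fit, Hsd17b7 (-0.26, unadjusted p = 0.00691) and Nsdhl (-0.17, unadjusted p = 0.0449) remained under that unadjusted threshold. Ebp (-0.13, unadjusted p = 0.0666), Tm7sf2 (-0.16, unadjusted p = 0.0705) and Acly (0.09, unadjusted p = 0.101) did not, and Sc5d, a sterol desaturase, came under it in the higher direction (0.13, unadjusted p = 0.0399). The smallest adjusted p was then 0.158. Without the covariate, the paired intervals of the other genes in the mean of the lines held 0, and the narrowest belonged to Scd2, a desaturase of saturated fatty acids (-0.08 to 0.07), and Sqle, squalene epoxidase (-0.10 to 0.10).

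**Figure D1:**
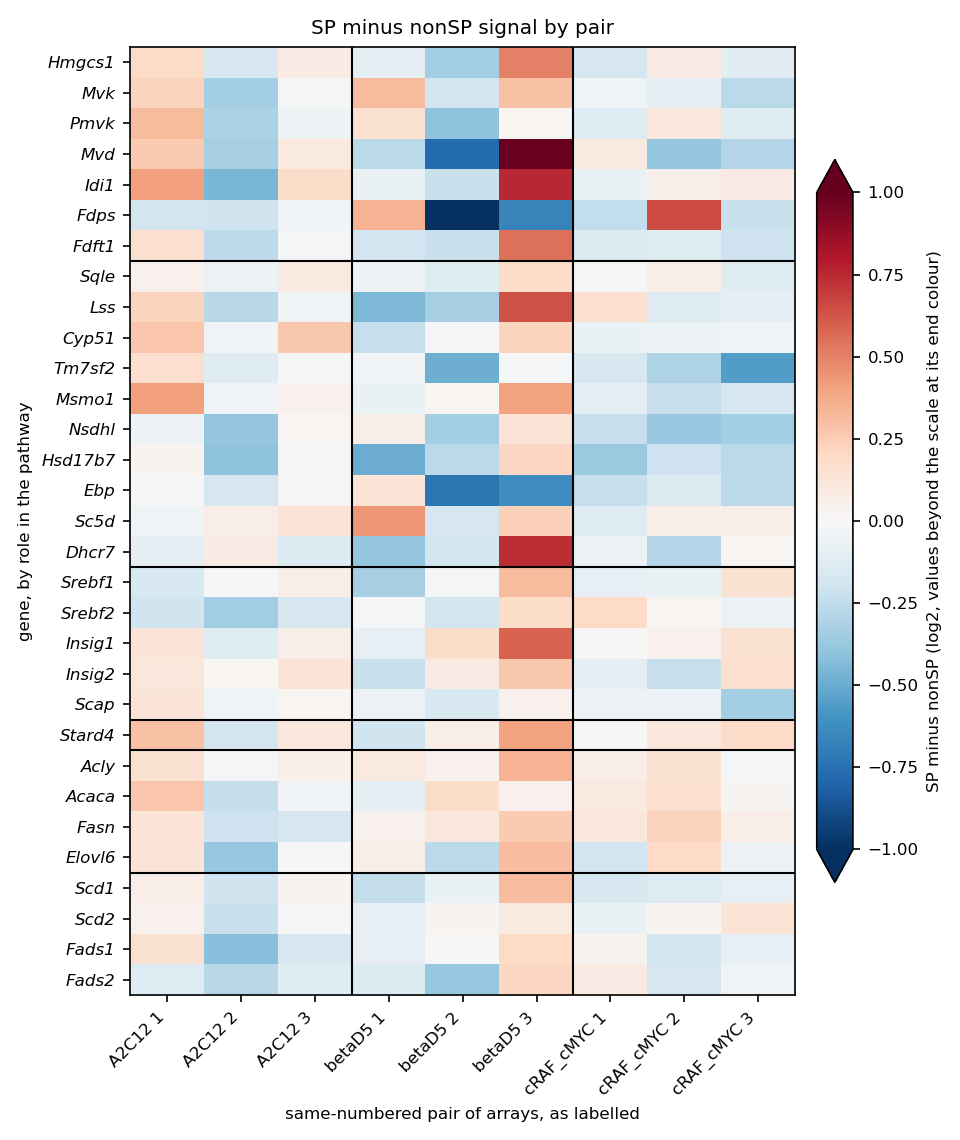
SP minus nonSP difference (log2, colour) of each of the 31 genes (rows, grouped by role from the mevalonate steps at the top to the desaturases at the bottom) in each of the 9 same-numbered pairs of arrays (columns). Whole columns shift together, up in betaD5 3 (28 of 31 higher in SP) and A2C12 1 (24 of 31) and down in A2C12 2 (4 of 31), while Fdps goes from -1.42 to 0.65 over pairs.

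What the colour map of pair differences shows is that most of these genes shifted together within a pair and not alike between pairs of a line. In betaD5 3, SP cells were higher in 28 of 31 genes with a median of 0.26, where 56% of all genes were higher. In betaD5 2 only 8 of 31 were higher with a median of -0.18 (56.2% of all genes), and in betaD5 1 the count was 9 (47.2%). In A2C12 the counts were 24, 4 and 17 of 31 in pairs 1, 2 and 3, with medians of 0.14, -0.20 and 0.01, beside 54.3%, 45.1% and 46.2% of all genes. In cRAF_cMYC they were 8, 14 and 10, beside 59.3%, 45.3% and 55.3%.

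The mevalonate steps show the swing most. Mvd, mevalonate diphosphate decarboxylase, differed by 0.99 in betaD5 3 and by -0.77 in betaD5 2. Idi1, isopentenyl diphosphate isomerase, differed by 0.75 and -0.22 in the same pairs and by 0.41, -0.46 and 0.18 in A2C12 pairs 1, 2 and 3. Hmgcs1 differed by 0.50 and -0.35 in betaD5 3 and 2. All 7 genes of these steps were lower in SP cells in betaD5 2 and in A2C12 2, and 6 of 7 were higher in betaD5 3 and in A2C12 1. Fdft1, squalene synthase, stands at the end of this series and differed by 0.55 in betaD5 3 and by -0.26 to 0.16 in the other 8 pairs. Mvk, mevalonate kinase, and Pmvk, phosphomevalonate kinase, ranged from -0.34 to 0.32 and from -0.40 to 0.32.

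Fdps, farnesyl diphosphate synthase, did not follow the others. In betaD5 its signal was 13.17, 12.22 and 11.49 in nonSP and 13.52, 10.80 and 10.83 in SP arrays 1, 2 and 3. The SP array is above its partner in pair 1 and below it in pairs 2 and 3, and the groups overlap. The difference was -0.58 (SE 0.58, adjusted p = 1 by limma; paired 95% interval -1.15 to -0.01, paired adjusted p = 0.415). Within betaD5 Fdps fell only in pairs 2 and 3. Their 3' to 5' ratios were 0.91 and 0.96 on SP arrays and 0.14 and 0.10 on nonSP arrays. With that ratio as a covariate in the paired fit the difference was 0.15 (SE 0.20, adjusted p = 0.823). Ratio and SP fraction rise together in these pairs, so this fit cannot tell them apart. The part of RNA length was not tested. By pair Fdps differed by -0.25, 0.65 and -0.22 in cRAF_cMYC and by -0.18, -0.20 and -0.03 in A2C12. The other probe set of Fdps had a mean of 3.34, below the filter level of 6.53, and gives no second reading.

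Among the late sterol enzymes, Ebp in betaD5 read 11.12, 12.03 and 11.78 in nonSP and 11.26, 11.31 and 11.17 in SP arrays. Pairs 2 and 3 fall by 0.73 and 0.62 and pair 1 differs by 0.14, so the groups overlap. The difference was -0.40 (SE 0.36, adjusted p = 1; paired SE 0.14, paired adjusted p = 0.352). Without the pair labelled betaD5 1 the paired fit called it, at -0.67 (SE 0.09, adjusted p = 0.0259, with 0.421% of all genes called), and without cRAF_cMYC 3 as well the adjusted p was 0.0492 (0.137% of all genes). What remains there are pairs 2 and 3, whose SP arrays carry the raised 3' to 5' ratio. With that ratio as a covariate beside the pair block, and all pairs in, the betaD5 difference was -0.07 (SE 0.13, adjusted p = 0.88). Here too ratio and SP fraction rise together in pairs 2 and 3 and cannot be told apart, and the part of RNA length was not tested. In A2C12 Ebp differed by 0.00, -0.17 and 0.01. The betaD5 difference was not called apart from the A2C12 one in either fit (interaction, 0 of 31 called, 0% of all genes). In cRAF_cMYC Ebp was lower in SP cells in every pair, by -0.23, -0.14 and -0.27. With the ratio as a covariate in the paired limma fit its difference there was -0.31 (SE 0.10, unadjusted p = 0.0103, adjusted p = 0.295).

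Tm7sf2 was the only member lower in SP cells in at least 8 of 9 pairs, a pattern that 3.39% of all genes had. In cRAF_cMYC it read 7.14, 8.04 and 7.86 in nonSP and 6.98, 7.73 and 7.30 in SP arrays, a difference of -0.35 (SE 0.26, adjusted p = 1; paired interval -0.61 to -0.08, paired adjusted p = 0.533). Each SP array is below its partner and the groups overlap. In betaD5 it differed by -0.03, -0.49 and -0.01 and in A2C12 by 0.17, -0.12 and -0.01, so 3 of the 8 lower pairs lie within 0.03 of 0.

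Nsdhl and Hsd17b7 were lower in SP cells in all 3 cRAF_cMYC pairs. So were Mvk, Fdft1, Cyp51, Tm7sf2, Msmo1, Ebp, Scap and Scd1, so this pattern was not particular to them. Nsdhl read 9.99, 10.59 and 10.54 in nonSP and 9.76, 10.21 and 10.20 in SP arrays there (difference -0.32, SE 0.25, adjusted p = 1; paired adjusted p = 0.534). Hsd17b7 read 10.40, 10.91 and 10.36 in nonSP and 10.03, 10.70 and 10.09 in SP arrays (difference -0.28, SE 0.28, adjusted p = 1; paired adjusted p = 0.618). Both sets overlap although each pair falls. A second probe set of Hsd17b7 read 8.31, 8.60 and 8.55 in nonSP and 8.05, 8.73 and 8.27 in SP arrays, so pair 2 rises there. Msmo1, a methylsterol oxidase and the fourth gene by p in this line, differed by -0.16 (SE 0.24) in cRAF_cMYC and by 0.14 (SE 0.24) in A2C12. Cyp51, lanosterol demethylase, read 10.50, 10.40 and 10.50 in nonSP and 10.77, 10.35 and 10.77 in SP arrays of A2C12 (0.17, SE 0.27, adjusted p = 1). Of the other enzymes of these steps, Lss and Dhcr7 swung with the pair, from -0.45 and -0.39 in betaD5 1 to 0.64 and 0.74 in betaD5 3, and Sc5d was higher in SP cells in 6 of 9 pairs (-0.17 to 0.44).

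Of the regulators, Srebf2, the gene of the factor that favours sterol genes, had the lowest paired p in A2C12. It read 10.26, 10.56 and 10.36 in nonSP and 10.06, 10.21 and 10.20 in SP arrays. Every SP array lies below every nonSP array, which 1 of 31 members and 1.56% of all genes did in that direction. The difference was -0.24 (SE 0.33, adjusted p = 1; paired interval -0.44 to -0.03, paired adjusted p = 1). A second probe set of Srebf2 overlapped in A2C12, at 8.66, 8.94 and 9.24 in nonSP and 8.66, 8.77 and 9.02 in SP arrays. Srebf2 was not lower in cRAF_cMYC (0.20, 0.02 and -0.06 by pair). Insig1, a sterol-regulated anchor of the SCAP complex and a known target of SREBP, differed by 0.59 in betaD5 3 and by -0.12 to 0.18 in the other 8 pairs. Srebf1, Insig2 and Scap differed by -0.34 to 0.32 over all pairs.

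On the fatty acid side, Fasn, fatty acid synthase, and Acly were each higher in SP cells in 7 of 9 pairs, with means of 0.06 (paired interval -0.05 to 0.18) and 0.10. Acaca, acetyl-CoA carboxylase, differed by 0.05 and Elovl6, an elongase of saturated and monounsaturated fatty acids, by -0.02. The 4 desaturases lay at or just below 0 in the mean of the lines, from -0.11 for Fads2 to -0.01 for Scd2. Fads2, a desaturase of polyunsaturated fatty acids, read 10.09, 10.16 and 10.58 in nonSP and 9.96, 9.88 and 10.45 in SP arrays of A2C12 (-0.18, SE 0.25, adjusted p = 1), lower in 3 of 3 pairs with overlapping groups. Stard4, a carrier that moves sterol between membranes, differed by 0.09 in the mean (paired interval -0.07 to 0.24).

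Other genes of lipid handling, listed beside the members, were alike in this. None of the 13 genes of sterol esterification, efflux, lysosomal release and oxysterols, of the 22 other genes of fatty acid, NADPH and acyl-CoA metabolism, or of the 7 other genes of SREBP processing and turnover was called in the mean of the lines by either fit. Fbxw7, the ubiquitin ligase subunit that marks nuclear SREBP for degradation, differed by 0.26 (SE 0.16; paired adjusted p = 0.236), higher in SP cells in 7 of 9 pairs. Tecr, a reductase of very long chain fatty acid synthesis, differed by -0.28 (SE 0.25), and by -0.72 (SE 0.44) in betaD5 (paired adjusted p = 0.319).

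The level of these genes in each line was compared among nonSP arrays, so that a pair enters each difference only once. The spread behind the p-values was still estimated from the arrays of both fractions, counted as independent. Same-numbered arrays deviated together, so the p-values of the line differences rest on fewer independent arrays than the fit assumed and may be too small. As deposited, betaD5 was above A2C12 in 13 of 31 genes and below it in 0, but 53.1% of all genes were called higher and 2.11% lower. cRAF_cMYC was above A2C12 in 10 of 31 and below in 0, with 26.3% of all genes higher and 2.28% lower. The median differences of the 31 genes were 0.74 and 0.65, beside all-gene medians of 0.71 and 0.45. Quantile normalization, which gives all arrays 1 distribution, brought the all-gene medians to 0.04 and 0.03 and those of the 31 genes to 0.00 and 0.18. It left 3 genes higher and 1 lower in betaD5 (15.6% and 13.2% of all genes) and 3 higher and 2 lower in cRAF_cMYC (12.1% and 10.3%). Centring each array on its median left 1 higher in betaD5 (13% of all genes) and 3 higher in cRAF_cMYC (11.8%), with 0 lower in either (10.8% and 7.2% of all genes). With all arrays, only the 10 of 31 in cRAF_cMYC as deposited exceeded the all-gene share. With both doubtful pairs left out, the direction against A2C12 turned in betaD5, where 2 of 31 were higher and 9 lower after quantile normalization (21.9% and 20.2% of all genes), 10 of 31 lay above 0 and the median was -0.22, beside 0.05 for all genes. The 9 lower were Pmvk, Fdps, Fdft1, Tm7sf2, Nsdhl, Sc5d, Insig1, Scd1 and Fads1, at -0.96 to -0.55. After centring 1 was higher and 9 lower (15.5% and 21%). In cRAF_cMYC 7 were higher and 3 lower after quantile normalization (17.3% and 14.8%), with a median of 0.27, and 8 higher and 1 lower after centring (16.2% and 11.9%). Of the 13 genes called in betaD5 as deposited, Scd2 turned below 0 on both rescaled sets.

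**Figure D2:**
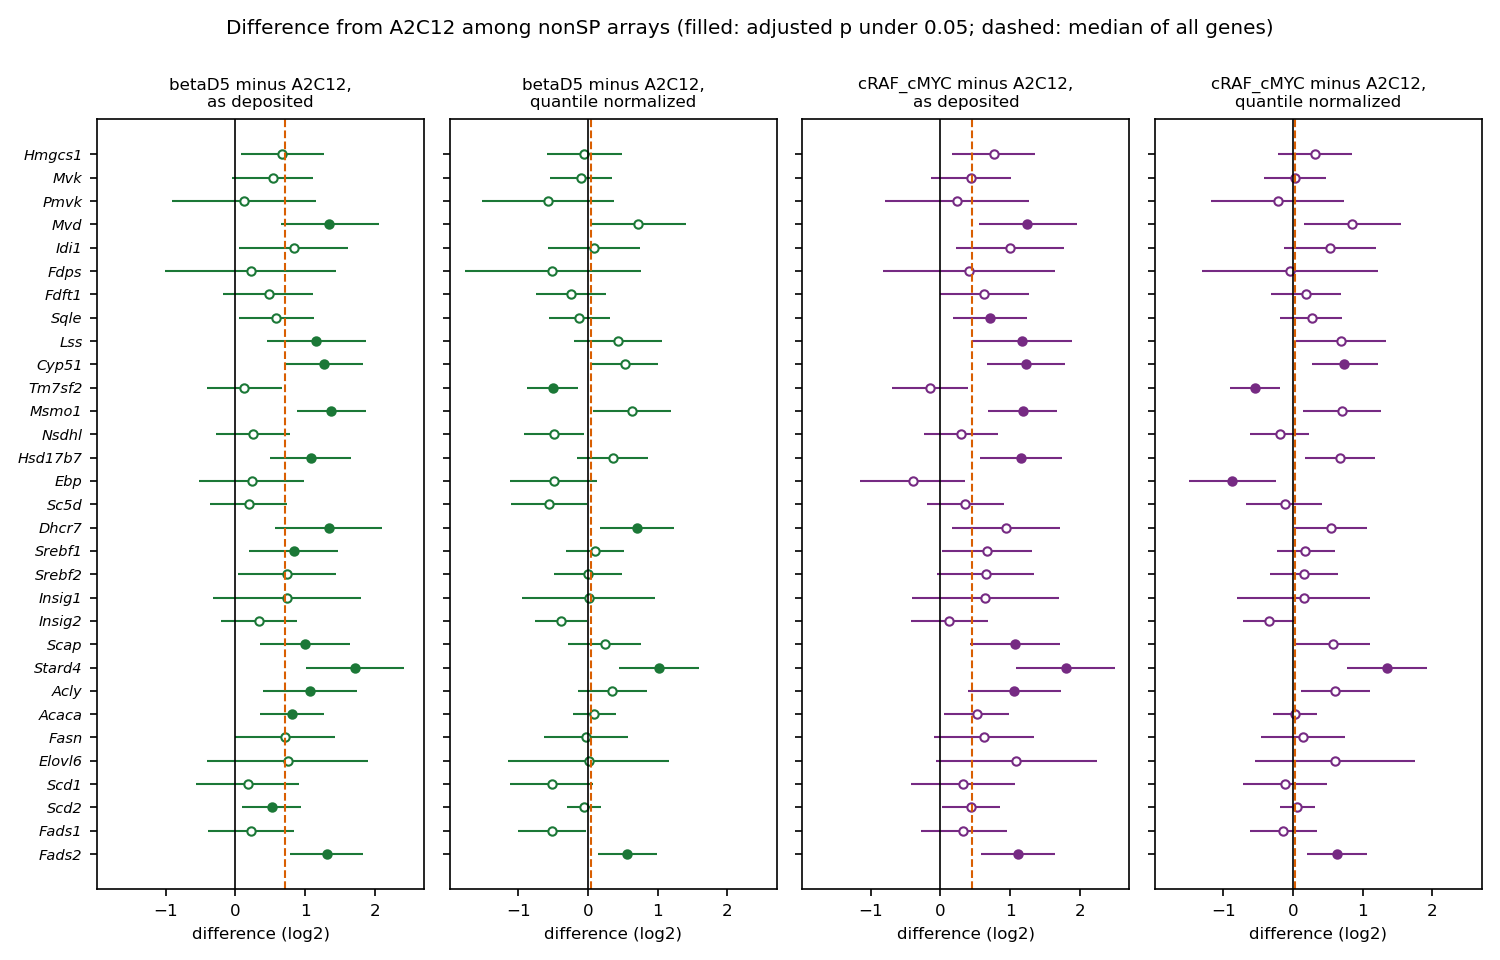
Difference from A2C12 (log2, points) with its 95% interval (lines) among nonSP arrays for the 31 genes in betaD5 (green) and cRAF_cMYC (purple), as deposited and after quantile normalization. Filled points passed an adjusted p of 0.05 in limma and the dashed line is the median of all genes tested, which sits at 0.71 and 0.45 as deposited and at 0.04 and 0.03 after normalization; Stard4 is the farthest point to the right in all 4 panels.

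Stard4 stood above A2C12 in both lines under every scaling. Its deposited signal was 8.96, 9.13 and 8.90 in A2C12, 11.51, 10.36 and 10.28 in betaD5, and 10.44, 11.29 and 10.64 in cRAF_cMYC. All 6 arrays of the latter lines lie above all 3 of A2C12. Group means were 9.0 ± 0.12, 10.72 ± 0.69 and 10.79 ± 0.44 (SD, n = 3). The differences from A2C12 were 1.72 (SE 0.33, adjusted p = 0.000672) and 1.80 (SE 0.33, adjusted p = 0.00109) as deposited, 1.02 (SE 0.27, adjusted p = 0.0102) and 1.35 (SE 0.27, adjusted p = 0.00211) after quantile normalization, and 1.02 and 1.42 after centring. With both doubtful pairs (betaD5 1 and cRAF_cMYC 3) left out, the quantile-normalized differences were 0.65 (adjusted p = 0.00333) and 1.48 (adjusted p = 9.37e-06). Among SP arrays they were 0.97 and 1.33 with all pairs. Its 3 probe sets went the same way, at 1.72, 1.74 and 2.39 in betaD5 and 1.80, 1.57 and 2.15 in cRAF_cMYC as deposited.

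**Figure D3:**
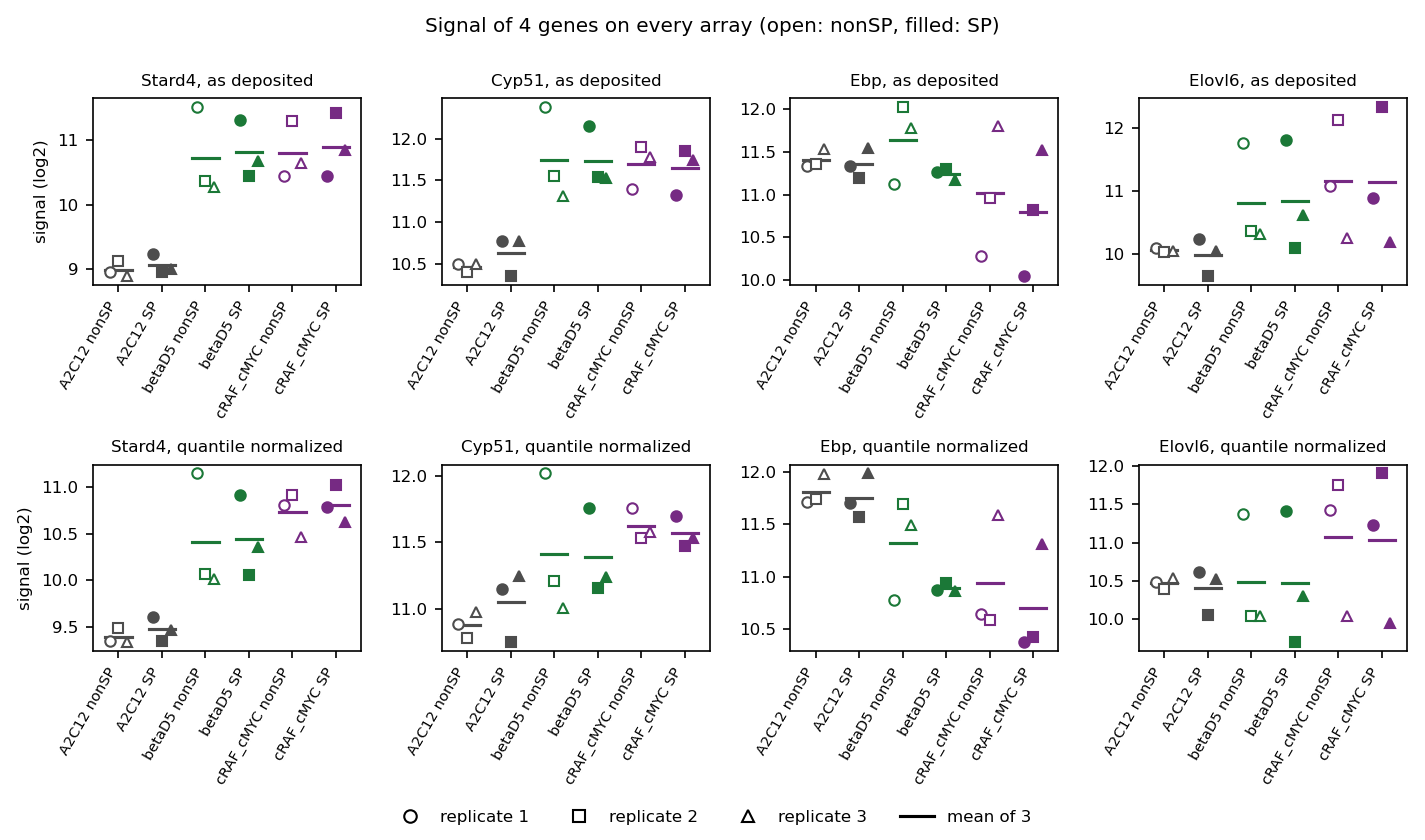
Signal (log2) of Stard4, Cyp51, Ebp and Elovl6 on each of the 18 arrays, as deposited (top) and after quantile normalization (bottom), by line (grey A2C12, green betaD5, purple cRAF_cMYC) and fraction, with the mean of 3 arrays as a bar. Stard4 separates A2C12 (at most 9.60 after normalization) from the other lines (at least 10.01), and for normalized Ebp and Elovl6 the circle of betaD5 lies near the circle and square of cRAF_cMYC in nonSP cells while the triangle of cRAF_cMYC lies away from these.

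After quantile normalization Fads2 was also called above A2C12 in both lines, Cyp51 in cRAF_cMYC and Dhcr7 in betaD5. After centring only 1 member, Stard4, was called higher in betaD5, so the betaD5 calls of Fads2 and Dhcr7 were lost. On centred values betaD5 3 lay below A2C12 3 for Cyp51 (10.89 and 10.99) and Fads2 (10.99 and 11.06). Quantile-normalized Cyp51 was 10.89, 10.78 and 10.98 in A2C12, 12.02, 11.21 and 11.01 in betaD5, and 11.76, 11.53 and 11.58 in cRAF_cMYC. No array of the other lines reaches down into A2C12, and the lowest betaD5 array comes within 0.03 of its highest. The differences were 0.53 (SE 0.22, adjusted p = 0.0876) in betaD5 and 0.74 (SE 0.22, adjusted p = 0.0264) in cRAF_cMYC, after 1.28 (SE 0.27, adjusted p = 0.00105) and 1.23 (SE 0.27, adjusted p = 0.00305) as deposited. The other probe sets of Cyp51 gave 0.74 and 0.64 in betaD5 and 0.73 and 0.71 in cRAF_cMYC as deposited, close to the all-gene median in betaD5. With both doubtful pairs left out the quantile-normalized values were 0.23 (adjusted p = 0.268) in betaD5 and 0.77 (adjusted p = 0.00284) in cRAF_cMYC, and among SP arrays 0.34 (adjusted p = 0.278) and 0.52 (adjusted p = 0.107).

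Quantile-normalized Fads2 was 10.49, 10.54 and 11.05 in A2C12, 11.47, 11.18 and 11.12 in betaD5, and 11.30, 11.30 and 11.37 in cRAF_cMYC. Here too the groups do not overlap, with A2C12 3 nearest to the rest. The differences were 0.56 (SE 0.20, adjusted p = 0.0456) and 0.63 (SE 0.20, adjusted p = 0.0341), after 1.31 (SE 0.25, adjusted p = 0.000597) and 1.11 (SE 0.25, adjusted p = 0.00411) as deposited. A further probe set of Fads2 gave 0.41 and 0.12 as deposited, below the all-gene medians, while the remaining probe set gave 0.96 and 0.89. With both doubtful pairs left out the calls were lost, at 0.46 (adjusted p = 0.123) and 0.60 (adjusted p = 0.0577), and among SP arrays Fads2 was called in both lines (0.62 and 0.74).

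Of the other genes with large deposited differences, Msmo1 differed from A2C12 by 1.38 (SE 0.24, adjusted p = 0.000268) in betaD5 and 1.18 (SE 0.24, adjusted p = 0.00197) in cRAF_cMYC. After quantile normalization these became 0.63 (adjusted p = 0.0856) and 0.70 (adjusted p = 0.069). Its deposited signal was 10.48, 10.83 and 10.55 in A2C12, 12.39, 12.11 and 11.48 in betaD5, and 11.70, 11.59 and 12.10 in cRAF_cMYC, with no overlap. Mvd, as deposited, read 7.65, 8.27 and 7.96 in A2C12, 9.99, 9.57 and 8.39 in betaD5, and 8.89, 9.31 and 9.44 in cRAF_cMYC, where betaD5 3 comes within 0.12 of the highest A2C12 array. Its differences of 1.35 and 1.25 as deposited became 0.72 (adjusted p = 0.111) and 0.85 (adjusted p = 0.0732).

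Dhcr7, which reduces dehydrocholesterol to cholesterol, was 8.25, 8.11 and 8.23 in A2C12, 9.69, 9.52 and 9.41 in betaD5, and 8.25, 9.58 and 9.59 in cRAF_cMYC as deposited. The betaD5 arrays lie together above A2C12, and cRAF_cMYC 1 stands at the A2C12 level. The betaD5 difference was 1.34 (SE 0.37, adjusted p = 0.00612) as deposited and 0.70 (SE 0.25, adjusted p = 0.0473) after quantile normalization. Lss, which closes the sterol rings to form lanosterol, and Hsd17b7 were called in cRAF_cMYC as deposited (1.17 and 1.15) and not after quantile normalization (0.69, adjusted p = 0.112, and 0.67, adjusted p = 0.0543). A second Lss probe set overlapped as deposited, at 9.48, 9.76 and 8.41 in cRAF_cMYC and 8.98, 9.44 and 9.24 in A2C12. A dimmer one did not (6.45, 7.21 and 6.55 against 6.25, 6.07 and 5.83). For Hsd17b7 2 further probe sets overlapped, at 8.31, 8.60 and 8.55 against 8.51, 8.37 and 8.19, and at 7.47, 8.40 and 7.78 against 7.44, 7.75 and 7.13.

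Ebp and Tm7sf2 went the other way after rescaling. Quantile-normalized Ebp was 11.71, 11.74 and 11.98 in A2C12 and 10.64, 10.58 and 11.59 in cRAF_cMYC, with no overlap and cRAF_cMYC 3 nearest to A2C12. The difference was -0.87 (SE 0.29, adjusted p = 0.0428), against -0.40 (adjusted p = 0.414) as deposited. Tm7sf2 was 8.04, 8.08 and 8.42 in A2C12, 7.78, 7.78 and 7.47 in betaD5, and 7.45, 7.68 and 7.76 in cRAF_cMYC. All arrays of the other lines lie below A2C12, at -0.50 (SE 0.17, adjusted p = 0.0387) and -0.55 (SE 0.17, adjusted p = 0.0321). As deposited the betaD5 value was 0.13, so its direction depends on the scaling. Among SP arrays both genes were below A2C12 in both lines, Ebp at -0.87 and -1.06 and Tm7sf2 at -0.74 and -0.92. After centring neither was called among nonSP arrays (adjusted p = 0.104 for Ebp in cRAF_cMYC, and 0.0698 and 0.101 for Tm7sf2). In cRAF_cMYC, Cyp51 was thus above A2C12 after quantile normalization and Tm7sf2, whose step follows it, was below.

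Markers of other cell types also separated A2C12 from the rest. The summed signal of the fibroblast markers was 13.54 to 14.45 (log2) on the 6 A2C12 arrays and 15.17 to 16.30 on the other 12, and that of the mesothelial markers was 8.98 to 9.76 against 12.65 to 14.74. After quantile normalization 4 of 5 mesothelial and 2 of 7 fibroblast markers above the filter were called higher than A2C12 in each line. Of the 5 epithelial markers above the filter 0 were called in either direction. The shares of all genes were 15.6% higher and 13.2% lower in betaD5, and 12.1% and 10.3% in cRAF_cMYC. Cdh1, below the filter and so not tested, read 5.65 to 6.97 on the 6 A2C12 arrays and 3.37 to 5.42 on the other 12 as deposited. Cldn4 and Cldn7, also below the filter, overlapped. The part of cell type in the line differences was not tested.

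As labelled, betaD5 and cRAF_cMYC could not be told apart: 0 of 31 genes and 0% of all genes were called between them under any of the 3 scalings. The 4 genes with the smallest p as deposited were Ebp (0.63, SE 0.36, adjusted p = 0.592), Acaca (0.30, SE 0.22), Tm7sf2 (0.28, SE 0.26) and Dhcr7 (0.40, SE 0.37). After quantile normalization 27 of 31 genes nevertheless lay below 0 in betaD5, with a median of -0.25 against 0.02 for all genes.

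With both doubtful pairs left out, which leaves 2 arrays against 2, more of these genes were called. Those pairs were picked because their arrays resembled the other line, so a rise in calls between the lines follows in part from the choice: all genes called went from 0% to 21.5% after quantile normalization. The counts and p-values that follow describe these arrays and are no independent support for a difference between the lines. After quantile normalization 18 of 31 were called lower in betaD5 and 1 higher, where 12.6% of all genes were lower and 8.92% higher, and their median was -0.66 against 0.05. The higher gene was Ebp. The lower genes were 5 of 7 mevalonate and isoprenoid genes, 5 of 10 later sterol enzymes, 2 of 5 regulators (Insig1 and Scap), Stard4, 3 of 4 genes of fatty acid synthesis (Acly, Fasn and Elovl6) and 2 of 4 desaturases (Scd1 and Fads1). After centring 17 were lower and 1 higher (12.9% and 4.47% of all genes). As deposited only Ebp was called, at 1.29 higher in betaD5, where 8.02% of all genes were higher and 3.17% lower and the all-gene median was 0.33. Among SP arrays 13 of 31 were lower and 1 higher after quantile normalization (11% and 8.48% of all genes), and after centring 11 were lower (9.18%) and 0 higher (6.06%).

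The values by array show what these counts rest on. The following genes were chosen after their values were seen. Quantile-normalized Elovl6 was 11.38, 10.05 and 10.04 on betaD5 arrays 1, 2 and 3 and 11.43, 11.75 and 10.05 on cRAF_cMYC arrays 1, 2 and 3. betaD5 1 is at the level of cRAF_cMYC 1 and 2, and cRAF_cMYC 3 at that of betaD5 2 and 3, with A2C12 between (10.49, 10.40 and 10.54). Without both pairs the difference was -1.55 (SE 0.25, adjusted p = 0.000952), and among SP arrays it was -1.56 (adjusted p = 0.00102).

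Scd1, a desaturase that makes monounsaturated fatty acids, followed the same order with smaller steps. It was 12.99, 11.97 and 11.64 in betaD5 and 12.59, 12.89 and 12.33 in cRAF_cMYC, and without both pairs differed by -0.93 (SE 0.15, adjusted p = 0.000957). Insig1 was 11.94, 10.08 and 10.00 in betaD5 and 10.69, 11.19 and 10.58 in cRAF_cMYC. Its betaD5 1 array is the highest of the 6, and cRAF_cMYC 3 lies close to cRAF_cMYC 1. Without both pairs Insig1 differed by -0.90 (SE 0.23, adjusted p = 0.014) among nonSP and by -0.57 (adjusted p = 0.1) among SP arrays. Fdps differed by -1.15 (SE 0.26, adjusted p = 0.00776) and Pmvk by -1.03 (SE 0.25, adjusted p = 0.0112). Ebp ran opposite, at 0.98 (SE 0.16, adjusted p = 0.000799), with 10.78, 11.69 and 11.49 in betaD5 and 10.64, 10.58 and 11.59 in cRAF_cMYC.

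**Figure D4:**
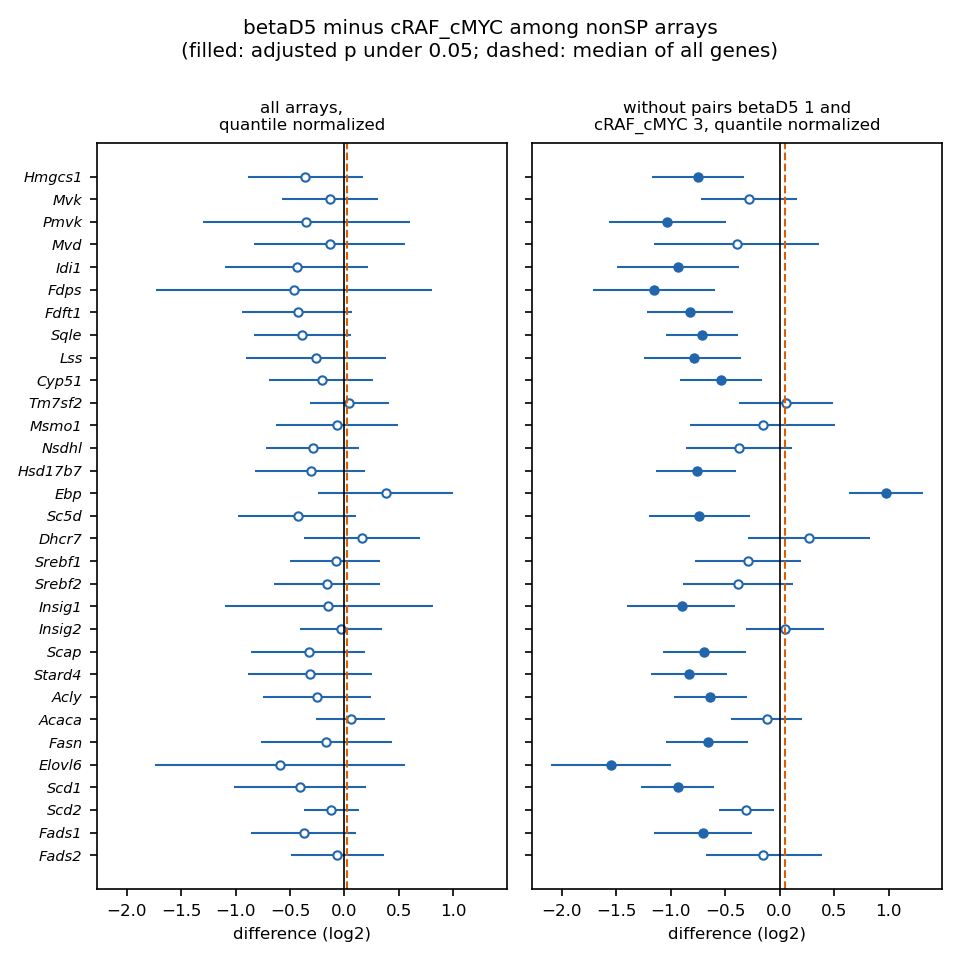
Quantile-normalized difference betaD5 minus cRAF_cMYC (log2, points) with its 95% interval among nonSP arrays, with all 3 arrays a line (left) and without the pairs labelled betaD5 1 and cRAF_cMYC 3 (right). Filled points passed an adjusted p of 0.05 in limma; 0 do on the left and 19 on the right, of which Ebp alone lies above 0, and the dashed line marks the median of all genes (0.02 and 0.05).

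The size of this set depended on few arrays. With the pair betaD5 3 also left out 3 of 31 were lower (6.36% of all genes, and 2.69% higher). Without cRAF_cMYC 2 the count was 8 (7.67%, and 5.01% higher), without betaD5 2 it was 13 (7.58%, and 3.22% higher) and without cRAF_cMYC 1 it was 15 (13.1%, and 10.3% higher), with 1 member higher each time. The lone array is then assumed to vary like the other groups. RNA length moved with the groups as well, with 3' to 5' ratios of 0.14 and 0.10 on the nonSP arrays betaD5 2 and 3 and 0.33 and 0.65 on cRAF_cMYC 1 and 2, and with this ratio as a covariate 4 genes were lower and 1 higher (5.8% and 2.85% of all genes).

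Cell type markers moved with the same arrays. Thy1, a surface protein of fibroblasts, read 11.25, 10.01 and 12.18 on the nonSP arrays betaD5 1, cRAF_cMYC 1 and cRAF_cMYC 2 and 5.45 to 6.0 on betaD5 2, betaD5 3 and cRAF_cMYC 3. Postn, a matrix protein, read 10.31, 11.69 and 11.46 on the former and 5.59, 6.04 and 5.68 on the latter. Fabp4, a fatty acid carrier of adipocytes, read 11.30, 9.17 and 11.87 against 5.73, 5.62 and 6.22. Other markers ran opposite. Csf1r, a receptor of macrophages, read 8.0, 7.38 and 7.80 on the former and 11.01, 10.57 and 10.89 on the latter, and the fibroblast marker Col1a1 read 11.59, 11.17 and 11.97 against 12.81, 12.97 and 13.01. The sets do not overlap for any of these genes, and Adipoq, which defines adipocytes, stayed at 3.77 to 4.89 on all 18 arrays. Other leukocyte markers did not follow Csf1r. Ptprc stayed at 3.15 to 4.72, and Tyrobp, Cd52 and Coro1a also lay below the filter. Cd68 overlapped, at 7.84, 6.82 and 8.22 against 7.56, 7.52 and 6.76. Without both pairs 4 of 7 fibroblast markers above the filter were called lower and 1 (Col1a1) higher in betaD5, 1 of 2 adipocyte markers (Fabp4) lower and 1 of 3 leukocyte markers (Csf1r) higher. After quantile normalization without these pairs 12.6% of all genes were called lower and 8.92% higher. The part of cell type in the lower values of the lipid genes was not tested.

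The members' mean signal above each array's median over the genes tested describes the same split without a call. It was 2.05 on nonSP betaD5 1 and 1.90 and 1.88 on cRAF_cMYC 1 and 2, and 1.57, 1.28 and 1.67 on betaD5 2, betaD5 3 and cRAF_cMYC 3. The A2C12 nonSP arrays had 1.51, 1.58 and 1.65. On SP arrays of the same pairs it was 1.96, 1.76 and 1.87 against 1.23, 1.44 and 1.51, and 1.43 to 1.68 in A2C12. Before the array median was subtracted the sets were not split. The deposited means were 11.67, 10.75 and 11.54 on nonSP betaD5 1, cRAF_cMYC 1 and cRAF_cMYC 2. They were 11.07, 10.75 and 11.09 on betaD5 2, betaD5 3 and cRAF_cMYC 3. The median over the genes tested was 8.85 on nonSP cRAF_cMYC 1 and 9.47 on betaD5 3.

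Among the other lipid genes the differences from A2C12 included several in sterol disposal, named here after their values were seen. After quantile normalization Cyp27a1, a mitochondrial enzyme that makes oxysterol and bile acid precursors, was at -2.78 from A2C12 in betaD5 (SE 0.22, adjusted p = 6.56e-07) and at -2.67 in cRAF_cMYC (SE 0.22, adjusted p = 1.17e-06). Nr1h3, the oxysterol receptor LXR alpha, was lower in both (-0.87 and -0.80), and Osbpl1a, an oxysterol-binding protein, was higher (0.98 and 1.04). In the list of esterification, efflux, lysosomal release and oxysterol genes 3 of 13 were higher and 3 lower in each line. Of all genes 15.6% were higher and 13.2% lower in betaD5, and 12.1% and 10.3% in cRAF_cMYC. Of the other fatty acid, NADPH and acyl-CoA genes 1 of 22 was higher and 2 lower in betaD5, and 0 and 2 in cRAF_cMYC. Of the other SREBP processing genes 2 of 7 were higher and 1 lower in betaD5, and 1 and 1 in cRAF_cMYC. Mbtps1, the protease that makes the first cut in SREBP, was higher in both (0.43 and 0.48), beside Scap at 0.25 and 0.58, which was not called.

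With the same pairs left out the other lists were mixed between betaD5 and cRAF_cMYC where the members were mostly lower. Of the other fatty acid, NADPH and acyl-CoA genes 5 of 22 were higher and 5 lower, with a median of -0.01. Beside these lists, 8.92% of all genes were higher and 12.6% lower after quantile normalization. Chosen after their values were seen, Elovl5, an elongase of polyunsaturated fatty acids, was at -1.27 (SE 0.15, adjusted p = 5.35e-05), Acsl3, an acyl-CoA synthetase, at -1.01 (SE 0.20, adjusted p = 0.00374), and Plin2, a lipid droplet coat protein, at -1.02 (SE 0.19, adjusted p = 0.00232). Elovl7, an elongase of long saturated chains, was at 2.43 (SE 0.35, adjusted p = 0.000373). Of the esterification, efflux, lysosomal release and oxysterol genes 0 of 13 were higher and 3 lower, and of the other SREBP processing genes 0 of 7 were higher and 3 lower, with medians of -0.21 and 0.05.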

How the data were processed

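The deposited values were log2 signals of 45101 probe sets on 18 Affymetrix 3' expression arrays, made with Affymetrix Expression Console per the submitters' processing notes. The algorithm and normalization are not given in the sources used here, and array medians differed. Arrays report signal only, so their number (3 a group) limits the precision. The 34945 probe sets naming a single gene symbol were used, the brightest per gene over all arrays, and the 40% of genes with the lowest mean (below 6.53) were left out. The genes described and all lists were chosen with earlier results of these data known.

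Group means were fitted with limma 3.58.1 in R 4.3.3 (variance trend, 12 residual degrees of freedom, two-sided, Benjamini-Hochberg adjustment over 10916 genes), checked on simulated data. SP comparisons were also fitted with the pair (line and number) as a block. In every line the same-numbered arrays deviated together (correlations of deviations 0.426 to 0.952), so numbers were taken as pairs, although betaD5 3 correlated more with another number (0.684) than with its own (0.600). Alternatives were quantile normalization, array centring, other filters and probe set rules, blocks, an RNA length covariate and arrays left out. Rescaling combined with pairs left out was chosen after seeing the data. Named genes were the 6 called with the largest difference or, with none called, the 4 with the smallest p, and those with 1 sign in at least 8 of 9 pairs; others are said to be chosen after their values were seen. Promoters are RefSeq sequences (GRCm38.p6).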

Additional observations from a re-analysis of the deposited data

How the results depend on the processing

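In the SP comparisons 0 genes of the set were called under every alternative run, except in betaD5 with the replicate block, where 1 (Ebp) was called without the pair betaD5 1, alone or with cRAF_cMYC 3 (range over pairs left out 0 to 1). Line differences depended on scaling. For betaD5 against A2C12 13 were called as deposited (55.2% of all genes), 4 after quantile normalization (28.8%) and 1 after centring (23.8%). Without the pairs betaD5 1 and cRAF_cMYC 3 the rescaled counts became 11 (2 higher, 9 lower) and 10 (1 higher, 9 lower). The all-gene shares were then 42% and 36.5%. Among SP arrays they were 6 (28.6% of all genes) and 3 (25.2%), and 8 after centring without those pairs (39.4%). Quantile normalization without those pairs and betaD5 3 left 3, and without those and betaD5 2 Mvd turned to -0.16 (adjusted p = 0.728 by limma). For cRAF_cMYC against A2C12 10 were called as deposited (28.5% of all genes), 5 after quantile normalization (22.4%) and 3 after centring (19%). Among SP arrays the rescaled counts were again 5 (24.8%) and 3 (23%). Without both pairs 10 (7 higher, 3 lower) and 9 (8 higher, 1 lower) were called, beside 32% and 28.1% of all genes. There were 6 with the RNA length covariate, quantile normalization and both pairs out. For betaD5 against cRAF_cMYC 0 became 1 without both pairs as deposited (11.2% of all genes). The count without them was 19 after quantile normalization (21.5%) and 18 after centring (17.4%). Among SP arrays these were 14 (19.5%) and 11 (15.2%). Leaving out a further pair after quantile normalization gave 14, 4, 16 and 9 (betaD5 2, betaD5 3, cRAF_cMYC 1 and cRAF_cMYC 2), and the covariate gave 5. Leaving out each array or pair as deposited gave 8 to 18 for betaD5 against A2C12 (8 without betaD5 nonSP 1, and 18 without pair cRAF_cMYC 2) and 5 to 18 for cRAF_cMYC against A2C12 (5 without pair A2C12 1 or A2C12 3, and 18 without cRAF_cMYC nonSP 1). A block of the number shared by the lines gave 15, 12 and 0, and a random pair block 16, 9 and 0. Counts given here without an all-gene share show only how far the number of calls moved. Over single named genes 99 calls were lost, 11 gained and 1 turned. Stard4 kept its call under every alternative. The cause of these shifts was not tested.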
